A study of Homo sapiens with 14 samples.

Results

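The peaks of KMT2D chromatin occupancy at 5 nuclear receptor genes, RXRA, RARA, RARG, PPARD and VDR, were examined in glucose-deprived SCC23 cells. A peak was a member when its summit lay inside the interval of one of these genes or within 50 kb of it on hg19, and 26 of 13808 peaks met this rule. The genes were chosen by the KMT2D peaks already seen there, so the number and the height of these peaks are a description and were not tested. The study profiled SCC23, a cell line established from squamous cell carcinoma of the head and neck (HNSCC), after 6 h without glucose, a state that its labels call low glucose. The series holds 14 libraries, 1 for each antibody and genotype. They comprise KMT2D ChIP and input in KMT2D-WT cells, and H3K4me1, H3K27ac, H3K4me3, H3K27me3, H3K9me3 and H3 ChIP in KMT2D-WT and in KMT2D-KO cells made with Cas9. Peaks were taken from 1 of them, the KMT2D ChIP, and all libraries share the glucose deprivation. There was therefore no replicate, no KMT2D-KO library for the antibody and no culture with glucose to compare with.

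Nuclear receptors are transcription factors that are switched by small ligands. RXRA, the receptor for rexinoids such as 9-cis retinoic acid, is the common dimer partner of the others. RARA and RARG respond to retinoic acid, PPARD to fatty acids and VDR to the active form of vitamin D, and each of them binds DNA with RXRA as a heterodimer at repeats of the half-site AGGTCA. In stratified epithelia, retinoic acid and vitamin D are known for opposite roles in the programme of differentiation. KMT2D, which methylates H3K4 mainly at enhancers, is known as a subunit of a coactivator complex that nuclear receptors recruit.

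The stretch of 250 bases before the start is shown for RARG, at the 5′ end of whose interval a peak was called, for RARA, and for RXRA as the common partner. The sequences are from RefSeq on GRCh38.p14, in which 4 of the 5 genes had an entry and 7 starts were listed. Capitals mark the half-site AGGTCA on either strand. The peaks are on hg19 and no coordinate was converted, so none of these stretches is given as the sequence of a peak. Whether one lies within a peak, such as the peak over the 5′ end of RARG, was not determined.
RARG (chr12:53232210-53232459, minus strand): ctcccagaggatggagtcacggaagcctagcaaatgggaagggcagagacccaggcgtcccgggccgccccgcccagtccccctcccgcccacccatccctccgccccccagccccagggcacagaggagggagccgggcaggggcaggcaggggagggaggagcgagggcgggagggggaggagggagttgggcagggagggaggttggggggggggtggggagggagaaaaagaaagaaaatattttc
RARA, the first of its 3 starts (chr17:40308930-40309179, plus strand): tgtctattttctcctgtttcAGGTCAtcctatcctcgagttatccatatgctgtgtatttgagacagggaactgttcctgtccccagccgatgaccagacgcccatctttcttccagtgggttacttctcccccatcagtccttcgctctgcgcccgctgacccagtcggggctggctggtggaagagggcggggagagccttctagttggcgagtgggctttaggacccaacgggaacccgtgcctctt
RXRA, the first of its 2 starts (chr9:134326205-134326454, plus strand): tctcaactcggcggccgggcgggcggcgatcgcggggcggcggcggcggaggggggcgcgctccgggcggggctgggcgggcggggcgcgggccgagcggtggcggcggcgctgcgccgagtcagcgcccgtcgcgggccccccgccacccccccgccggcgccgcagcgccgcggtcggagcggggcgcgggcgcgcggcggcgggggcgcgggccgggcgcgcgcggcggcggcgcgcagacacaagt

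AGGTCA was found in 1 of the 7 stretches, that of RARA shown above, and in 12.1% of the 35116 promoters of the table. A direct repeat of AGGTCA, in which the same half-site would be counted again, was in 0 of the 7 at spacings of 1 to 5 bases. It was in 0.00285 to 0.0171% of all promoters, depending on the spacing, so that a count of 0 in 7 says nothing about these genes. The AP-1 motif TGACTCA was likewise in 0 of the 7 and in 4.2% of all promoters. The RXRA stretch shown was the richest of the 3 in CG dinucleotides, with 59, against 11 for RARA, 10 for RARG and a median of 11 over all promoters. This held for the first RXRA start only. The later RXRA start had 7, and the later RARA starts had 15 and 16. A match of letters is a description and does not show that a factor binds there.

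The 26 peaks were distributed over all 5 loci. RXRA had 9, RARA 5, VDR 5, PPARD 4 and RARG 3. Summits lay inside the gene interval for 20 of them. The intervals were given to 1 kb, so distances below are good to about 1 kb, and exons, introns and UTRs were not assigned because the annotation at hand is of another build. The strongest peak lay in RXRA, followed by peaks in RARA and RARG, whereas no peak of PPARD or VDR exceeded a fold enrichment of 5.02. Fold enrichment is the MACS2 ratio of scaled ChIP signal to local background at the summit.

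**Figure D1:**
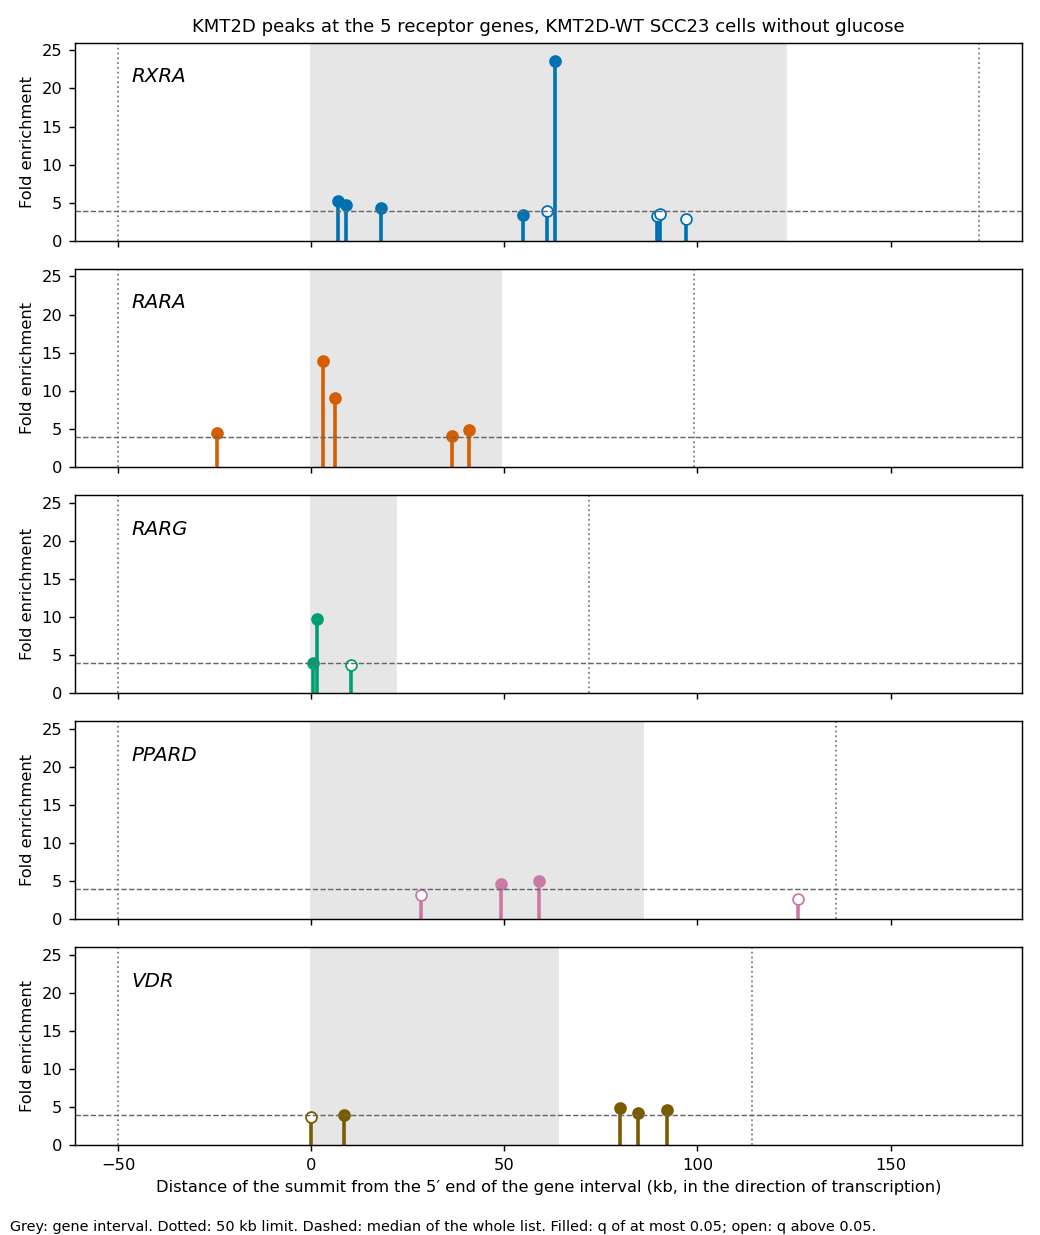
The 26 KMT2D peaks by distance of the summit from the 5′ end of the gene interval (kb, x axis) and fold enrichment (y axis), 1 panel for each gene, with the gene shaded, the 50 kb limit dotted and the median of the whole list dashed. Filled points have a q-value of at most 0.05. RXRA reaches 23.5 far inside the gene interval, RARA and RARG have their highest peaks near the 5′ end, and all points of PPARD and VDR stay at or below 5.02.

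At RXRA, all 9 summits fell inside the 123 kb gene and none in the flanks. The highest peak, at chr9:137270542-137272479, had a fold enrichment of 23.5, rank 4 of the whole list, and was 1938 bp wide. A total of 127 ChIP fragments covered its summit (95% Poisson interval 106 to 151), and its q-value was 2.11e-55. Its summit lay 63.0 kb from the 5′ end of the interval, near the middle of the interval. RefSeq also lists an RXRA start downstream of the first, and this peak may lie at it. The other 8 RXRA peaks were far weaker, with fold enrichments between 2.82 and 5.28 and between 15 and 39 fragments, and none of their fragment intervals reached that of the highest peak.

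The 9 RXRA peaks fell into 3 clusters of 3 peaks, where a cluster joins at least 3 peaks over gaps of up to 12.5 kb. The cluster nearest the 5′ end spanned 11.6 kb (chr9:137215671-137227263). Its peaks had fold enrichments of 5.28, 4.65 and 4.29 with 39, 23 and 21 fragments, and each reached a q-value of at most 0.05. Their summits were 7.0, 8.93 and 18.1 kb from the 5′ end. No RXRA peak came closer to that end than 6.67 kb, measured from the edge of the peak. The interval, however, is 8.87 kb longer than the RefSeq gene on GRCh38.p14. If all of this excess lies at the 5′ end, the first RefSeq start falls at or near the peak with its summit at 8.93 kb. No coordinate was converted to test this, so the 6.67 kb is not a distance from a transcription start.

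The middle cluster of RXRA (chr9:137263632-137272479, 8.85 kb) held the highest peak of the locus. A neighbour only 0.366 kb away had a fold enrichment of 3.94, 21 fragments and a q-value of 0.0943. The third peak of this cluster had 3.39 and 33 fragments, and its q-value was 0.0333. Its background was 3 control fragments, 2.74 times the genome-wide level. In the cluster nearest the 3′ end (chr9:137298353-137306158, 7.81 kb) the fold enrichments were 3.20, 3.50 and 2.82, with 15, 25 and 27 fragments and q-values of 0.994, 0.0782 and 0.343. None of these 3 peaks passed the q-value threshold of 0.05. They remain in the list because the authors called peaks on the p-value. Of the 9 RXRA peaks, 5 passed.

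RARA, the retinoic acid receptor alpha, had 4 peaks in the gene and 1 upstream. The highest, at chr17:38467685-38469022, had a fold enrichment of 13.9 and 74 fragments (58.1 to 92.9), with its summit 3.08 kb inside the gene. It ranked 125 in the list. The next, at chr17:38470666-38471272, 1.64 kb farther on, had 9.11 and also 74 fragments. Both lay in the first part of the gene, but neither reached the 5′ end of the interval, from which the nearer one was 2.68 kb away.

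The remaining RARA peaks were weak. A pair near the 3′ end, at 36.5 and 40.8 kb, had fold enrichments of 4.11 and 4.84 with 20 and 24 fragments. The upstream peak, 24.5 kb before the gene at chr17:38440038-38440823, had 4.47 and 22 fragments. On that side the next genes in RefSeq order are CDC6, a licensing factor of DNA replication, and WIPF2, and whether this peak belongs to one of them was not determined. RARA was the only locus of the 5 at which each peak passed the q-value threshold of 0.05. They were too far apart to form a cluster of 3.

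RARG, the retinoic acid receptor gamma, is the main RAR of skin and is encoded on the minus strand. Its 3 peaks all lay inside the 22 kb gene and formed 1 cluster of 10.9 kb (chr12:53615476-53626339). The highest, at chr12:53624332-53625007, had a fold enrichment of 9.72 and 74 fragments (58.1 to 92.9), with its summit 1.52 kb from the 5′ end. A weaker peak at chr12:53625464-53626339, 0.456 kb away, covered the 5′ end itself and had 3.93 with 19 fragments and a q-value of 0.0395. The third, 10.4 kb into the gene, had 3.74, 18 fragments and a q-value of 0.217. Signal at RARG was thus concentrated at the beginning of the gene, with the higher of the 2 neighbouring peaks just inside it.

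The highest RARG peak and the 2 highest of RARA had the same number of fragments, 74, but different fold enrichments of 9.72, 13.9 and 9.11. The local background, taken from the control library, was 1.83 times the genome-wide level at the RARG peak, 1.00 times at the higher RARA peak and 2.01 times at the lower one. At RARG the background had a value of 2, the size of 2 control fragments over the summit. Against the genome-wide background all 3 peaks would have had 13.9, a setting added after seeing the data. The order of these 3 peaks therefore rests on the control and not on the ChIP fragments.

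**Figure D2:**
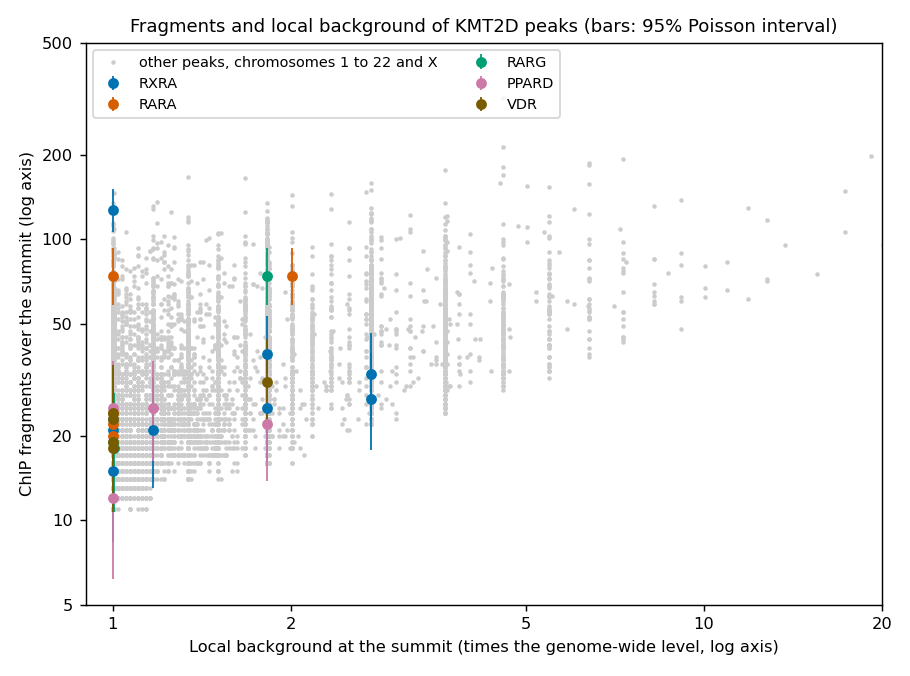
ChIP fragments over the summit (y axis, log) against the local background in multiples of the genome-wide level (x axis, log) for peaks of chromosomes 1 to 22 and X, in grey, and the 26 peaks of the 5 receptor genes, in colour with 95% Poisson intervals; 48 grey peaks lie outside the axes. RXRA has 1 point at 127 fragments, 3 points of RARA and RARG share 74 fragments at different backgrounds, and the other 22 lie between 12 and 39.

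PPARD, the receptor of the PPAR family that is widely expressed in epithelia, had 3 peaks inside the gene and 1 beyond it. None was near the 5′ end, and the closest began 28.3 kb away. The summits at 49.2 and 59.0 kb (chr6:35359067-35359260 and chr6:35368607-35369197) had fold enrichments of 4.60 and 5.02, with 25 fragments each and q-values of 0.00285 and 0.000816. The one at 28.3 kb had 3.12, 22 fragments and a q-value of 0.291. No 3 of these peaks formed a cluster.

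The last PPARD peak, at chr6:35436073-35436593, lay 40.1 kb past the 3′ end. With a fold enrichment of 2.66, 12 fragments (6.20 to 21.0) and a q-value of 1, it was the weakest of all 26. The next genes in RefSeq order on that side are FANCE, a subunit of the Fanconi anemia core complex, and RPL10A, which encodes a ribosomal protein, and which of them it lies nearest to was not determined. This peak was also the member nearest to the 50 kb limit. Just outside the limit, at 57.4 kb, a further peak had a fold enrichment of 2.26, 27 fragments and a q-value of 1.

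VDR, the vitamin D receptor, is on the minus strand and had the flattest profile, with fold enrichments from 3.75 to 4.84 and between 18 and 31 fragments. The peak at chr12:48298946-48299160 covered the 5′ end of the gene, to within the 1 kb of the interval, with 3.75, 18 fragments (10.7 to 28.4) and a q-value of 0.217. A peak 8.37 kb into the gene (chr12:48290486-48290728) had 3.93, 19 fragments and a q-value of 0.0395. The other 3 lay beyond the 3′ end.

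These 3 downstream peaks of VDR formed a cluster of 12.7 kb (chr12:48206600-48219304), with summits 15.9, 20.5 and 28.2 kb past the gene. They had fold enrichments of 4.84, 4.27 and 4.65 and 24, 31 and 23 fragments, and all had a q-value of at most 0.01. The middle one was 1122 bp wide. HDAC7, a class IIa histone deacetylase, and SLC48A1, a heme transporter, follow VDR on that side in RefSeq order, and which gene these 3 peaks concern was not tested. Restricted to summits inside the gene interval, VDR had 1 peak. The peak over the 5′ end was left out because its summit lay 0.055 kb outside, which is less than the 1 kb resolution of the interval.

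A peak covered the 5′ end of the interval at RARG and VDR, and in both it was weak, with 19 and 18 fragments. Measured from the same end, the first peak inside the interval began at 2.68 kb in RARA, 6.67 kb in RXRA and 28.3 kb in PPARD. These distances refer to the intervals and not to transcription starts. RefSeq lists 2 starts for RXRA and 3 for RARA, and no coordinate was converted to place a peak at one of them. The stretches before the RXRA starts are chr9:134326205-134326454 and chr9:134379045-134379294 on GRCh38.p14. If the interval and the RefSeq gene share their 3′ end and lengths hold between builds, the later start falls at or near the highest RXRA peak. Under the same assumption the first start falls at or near the weaker peak at chr9:137217175-137218053, with a fold enrichment of 4.65 and 23 fragments. Neither placement was tested.

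Set beside the whole list, the 26 peaks were mostly ordinary in height. Their median fold enrichment was 4.28 and the median over chromosomes 1 to 22 and X was 4.01, with medians of 23.5 and 25 fragments. Among the 26, 18 passed the q-value threshold of 0.05 (69.2%, 95% Wilson interval 50 to 83.5%), against a background of 58.8%. A fold enrichment over 10 was found in 2 of them, against 4.39% of all peaks, and a width over 1000 bp in 3, against 5.63%. Those 3 were the highest peaks of RXRA and RARA and the middle downstream peak of VDR. The local background was at least 2 times the genome-wide level at 3 peaks, against 15.2%: the RXRA peaks at 54.8 and 97.0 kb and the lower of the 2 high RARA peaks. Clusters held 15 of the 26, against 33.8%, and each of the 5 clusters had the smallest size counted, 3 peaks.

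The loci stood out more by number than by height, which is what they were chosen for. RXRA had 40.4 peaks per Mb of its window of gene and flanks (95% Poisson interval 18.5 to 76.6), and chromosome 9 as a whole 4.55. The value was 33.6 at RARA (10.9 to 78.3), on chromosome 17 with 10.8, and 30.5 at VDR (9.90 to 71.1) and 24.6 at RARG (5.07 to 71.9), both on chromosome 12 with 5.09. PPARD had 21.5 (5.86 to 55.1) on chromosome 6 with 4.62. The intervals of the 5 genes overlapped widely, so the genes were not ordered by density at this depth. All intervals cover counting error only.

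For comparison, chromosomes 1 to 22 and X were divided into consecutive windows as long as that of each gene. At least as many peaks as RXRA had were found in 1.68% of these windows. The share was 3.69% for the 5 peaks of RARA, 4.33% for the 5 of VDR, 6.99% for the 3 of RARG and 7.54% for the 4 of PPARD. Because the genes were taken for their peaks, these shares describe how common such regions are and test nothing.

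From 50 to 500 kb on either side, 16 peaks were called around RARG, 9 around RXRA, 9 around RARA, 6 around PPARD and 3 around VDR. RARG was the gene whose own density, 24.6 per Mb, was closest to that of its surroundings, 17.8 (10.2 to 28.9). Its density is averaged over a window of 122 kb. All 3 RARG peaks lay in the 22 kb gene and none in the flanks. Around RXRA the density was 10.0 (4.57 to 19.0) and around VDR 3.33 (0.687 to 9.74). The VDR window owes 3 of its 5 peaks to the downstream flank. RXRA was the most separate of the 5, with the next peak 318 kb from the gene. The corresponding distances were 133 kb for RARA, 111 kb for RARG and 87.4 kb for VDR, and these next peaks had fold enrichments of 3.75 at RXRA, 5.32 at RARA, 4.65 at RARG and 4.11 at VDR.

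**Figure D3:**
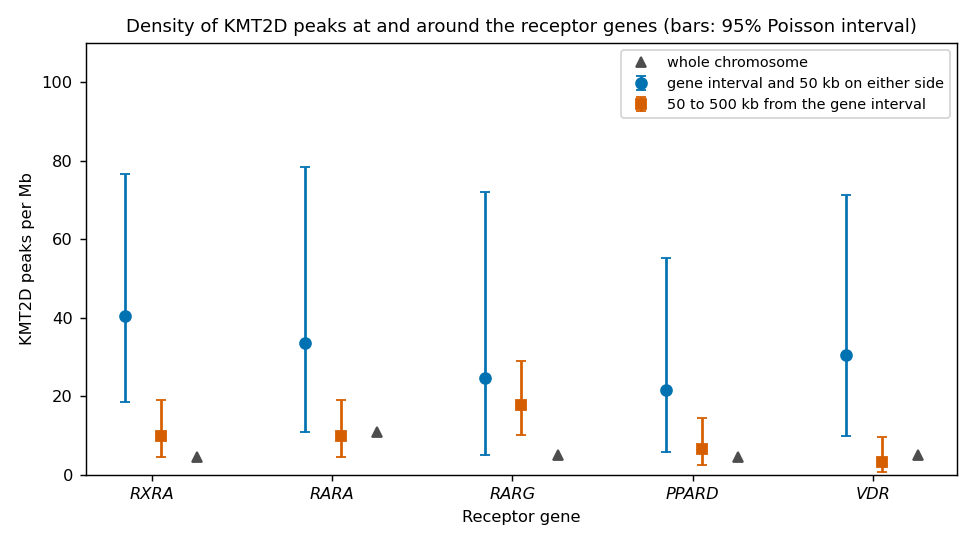
KMT2D peaks per Mb (y axis) for each receptor gene (x axis) in the gene with 50 kb on either side, from 50 to 500 kb away, and on the whole chromosome, with 95% Poisson intervals for the first 2. The genes were chosen for their peaks, and the value of each window lies above that of its chromosome. The interval of RARG, 5.07 to 71.9, includes the 5.09 of chromosome 12. It also overlaps most with its surroundings, 24.6 against 17.8 per Mb, although its flanks held no peak.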

How the data were processed

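ChIP-seq libraries of SCC23 cells were assigned to groups from the labelled antibody and genotype, and the KMT2D library of KMT2D-WT cells was used. The authors aligned to hg19 with Bowtie2, discarded reads that were not uniquely mapped and ran MACS2 at a p-value under 0.01. The control is not named in the sources used here. The deposited list gives for each peak a fold enrichment, which is a ratio of scaled ChIP pileup to local background with a pseudocount, the −log10 of the p-value and of the q-value, and a score that is the whole part of 10 times the −log10 p. No authors' comparison columns were present.

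The fragments and the local background at each summit were rebuilt for the whole list from these 2 columns, fold and p-value. Only whole numbers of fragments were tried. The scaling was 0.381, and the genome-wide background was 2.88 ChIP fragments, or 1.10 after scaling to the control. The p-values of all 13808 peaks were matched, with a largest gap of 0.000884 in −log10 p. The ChIP had 2.63 times the coverage of its control. In 3 simulated lists of at least 5827 peaks, at least 99.98% of the peaks had their number recovered exactly. The lists were simulated with the formulas used for rebuilding. They therefore check the inversion only, and not whether the deposited values follow these formulas. Over the real list the median was 25 fragments and the smallest number 11. Total depth was not analysed here. Intervals were exact Poisson or Wilson at the 95% level.

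Gene intervals came from the rule, strands from GENCODE v44 and the order of neighbours and the promoters from RefSeq, both on GRCh38. No coordinate was converted. The 39 other genes of retinoid, PPAR and vitamin D signalling planned for comparison need a GRCh37 annotation and were not analysed here. The members and lists were chosen with earlier results of these data known. For each locus the 5 peaks of highest fold enrichment and the one nearest the 5′ end were to be named, with 2 neighbouring genes on each side. The other peaks are given as well. Alternatives were other windows, stricter q-values, the upper part of the list by fold enrichment, overlap in place of the summit, and other definitions of clusters. Tools were scipy 1.17.1, numpy 2.4.6, matplotlib 3.10.9 and pandas 2.3.3 under Python 3.11.15.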

Additional observations from a re-analysis of the deposited data

How the results depend on the processing

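With 1 library, a peak of about 20 fragments cannot be shown to recur, and neither the response to glucose nor the dependence on KMT2D was measured. No paired analysis was possible because only 1 of the 14 samples entered the comparison. A count was taken as moved when it changed by more than 1.5 times, and a median when it left its own 95% interval or, under 6 peaks, its range. Of 86 alternative values, 62 stayed within these limits and 24 moved.

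A stricter q-value of at most 0.05 left 5 of 9 peaks at RXRA and 2 of 4 at PPARD. At 0.01 there were 3 at RXRA, 1 at RARG, 2 at PPARD, 3 at VDR and 13 of 26 in all. Keeping peaks above the median fold enrichment of the list left 5 at RXRA, 1 at RARG, 2 at PPARD, 3 at VDR and 16 in all. These filters lower counts by construction. RARA kept at least 4 of 5 peaks under each alternative run. VDR fell to 1 peak inside the gene interval, without the peak over its 5′ end, and to 2 within 10 kb. PPARD rose to 8 within 100 kb. Counting any overlap, or repeated intervals once, left all counts as they were.

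Without the pseudocount the median ratio was 6.23 at RXRA, 5.80 at PPARD, 6.60 at VDR and 7.12 over the 5 loci, where chromosomes 1 to 22 and X also rose, to 6.25. The 5 clusters fell to 0 with gaps of up to 5 kb, to 0 with at least 5 peaks and to 2 when peaks above a q-value of 0.05 were dropped, and numbered 7 with gaps of up to 25 kb. The genome-wide background, added after seeing the data, moved the lower of the high RARA peaks from 9.11 to 13.9 and the highest RARG peak from 9.72 to 13.9.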
